A study of Mus musculus with 2 samples.

Results

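The potassium channel genes described here are the genes on the array whose symbol begins with Kcn, without Kcnj13 and Kcne2. They numbered 82 of the 18193 genes that had a probe set annotated to exactly 1 symbol, and each gene was represented by its probe set with the highest mean signal. The sources were cortical tissue of male P4H-TM KO (P4h-tm-/-) mice and of their male WT littermates. All mice had the C57BL/6J strain, were aged 2.5 months and were untreated, and the P4h-tm-/- genotype was that of the whole animal and not of the cortex alone. The RNA of 4 mice was pooled for each genotype and hybridized to 1 Affymetrix Mouse Genome 430 2.0 array. Every difference therefore compares these 2 pools, with no replicate behind it and with neither a p-value nor an SD between animals. A difference is the log2 signal in P4H-TM KO minus the log2 signal in WT, and a negative value means a lower signal in P4H-TM KO.

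Potassium channels let potassium leave or enter a cell along its gradient. In cortical neurons they set the resting potential, end the action potential and limit how often a neuron fires, and in astrocytes they take up the potassium that active neurons release. Pore-forming subunits fall into voltage-gated, inward rectifying, tandem-pore and calcium- or sodium-activated classes, and auxiliary subunits change their gating or their transport to the membrane. P4H-TM is a prolyl 4-hydroxylase of the endoplasmic reticulum membrane, and the members of that family known as HIF prolyl 4-hydroxylases mark hypoxia-inducible factor (HIF) for breakdown. The comparison asked which of these channel genes differ in the cortex when P4H-TM is absent.

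P4htm, the targeted gene, had a log2 signal of 9.10 in P4H-TM KO and 11.05 in WT, 3.86-fold lower in P4H-TM KO. The arrays had median log2 signals of 6.39 in P4H-TM KO and 6.38 in WT. All 5 measured markers of cortical excitatory neurons had a mean signal above 6.385, the median of all probe sets, which served as a filter on low signals, and their median difference was −0.08, with a summed linear signal of 21500 in P4H-TM KO and 22900 in WT. All 9 measured choroid plexus markers, 2 of which are Kcnj13 and Kcne2, were higher in P4H-TM KO. Their median difference was 1.63, with a summed linear signal of 35200 in P4H-TM KO and 24600 in WT. All 8 meninges markers were also higher, with a median of 0.34 and sums of 5690 in P4H-TM KO and 3530 in WT. All 9 measured oligodendrocyte markers were lower, with a median of −0.27 and sums of 61600 in P4H-TM KO and 69000 in WT. All 4 measured hippocampus markers were lower, with sums of 3290 in P4H-TM KO and 4320 in WT. Of these Spink8 differed by −2.07 and the others by −0.11 to −0.03. Among mural markers 5 of 6 were higher, with a median of 0.10, and among endothelial markers 3 of 5, with a median of 0.11. In bulk tissue fewer cells of a type and less RNA per cell cannot be told apart, and the part of these cell types and tissues in the channel values was not tested.

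None of the 82 potassium channel genes reached 1.5-fold, a log2 difference of 0.585. Of all genes, 0.61% passed this threshold on the higher side in P4H-TM KO and 0.148% on the lower side. The differences ran between −0.48 for Kcnj15 and 0.57 for Kcng1. At any size 55 potassium channel genes had lower values in P4H-TM KO, 25 were higher and 2 were equal. Their median was −0.065. Of all genes 49.0% were lower and 46.0% higher, with a median of 0.00, so the channel genes leaned lower than the array as a whole, at 67.1%. The lean depended on the choice of probe set: when the probe sets of each gene were averaged, 44 genes were lower and 35 higher, a share of 53.7% lower against 50.7% of all genes.

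**Figure D1:**
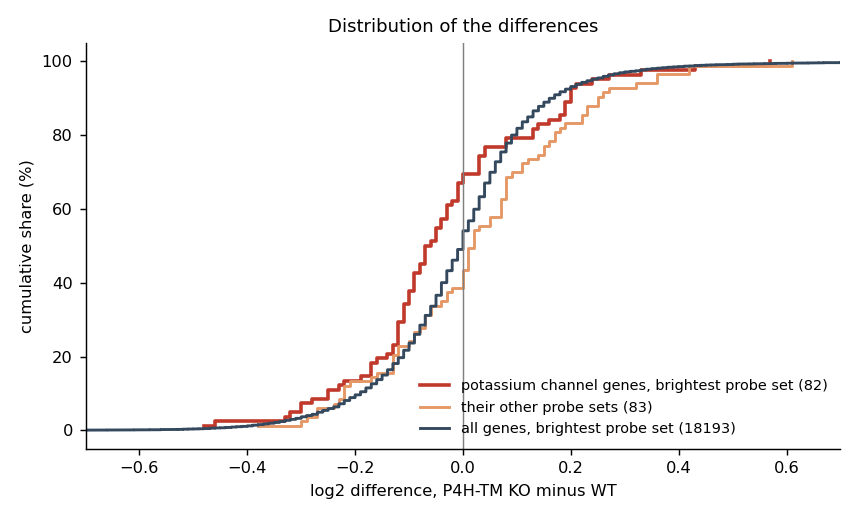
Cumulative share (%) of log2 differences, P4H-TM KO minus WT, for the brightest probe set of the 82 potassium channel genes, for the 83 other probe sets of the same genes and for the brightest probe set of all 18193 genes. The curve of the channel genes lies left of the curve of all genes around 0, with a median of −0.065, while their other probe sets lie to the right, with a median of 0.02.

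Signal level and size of the difference divided the genes further. Of the 57 channel genes above the filter, 36 were lower, or 63.2%, against 45.2% of all genes above it, with medians of −0.03 for the channel genes and 0.01 for all genes. Of the 25 channel genes below the filter, 19 were lower, or 76.0%, against 55.8% of all genes below it. The median of these 25 was −0.11, and all genes below the filter also had a negative median of −0.04. The differences between probe sets of the same channel gene had a pooled SD of 0.136 above the filter, which measures how well probe sets agree and not how animals vary. Within that SD, 30 channel genes above the filter were lower and 9 were higher. Beyond it 11 genes were higher and 6 lower, and the counts came closer with probe sets averaged, at 7 higher and 6 lower, and with arrays centred, at 10 higher and 8 lower. Among all genes above the filter 11.3% were higher and 9.42% lower beyond 0.136. In the channel genes above the filter the lean to lower values lay within 0.136. Of the 11730 genes of the array above the filter, 5881 were higher and 5306 lower at any size. Of these, 1328 higher and 1105 lower genes lay beyond 0.136, so within it all genes did not lean lower.

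At a threshold of 1.2-fold, a log2 difference of 0.263, 4 channel genes were higher and 7 lower, where 4.12% of all genes were higher and 4.91% lower. The higher genes were Kcng1, Kcnj16, Kcnf1 and Kcnh7, and the lower genes were Kcnj15, Kcnh8, Kcne1, Kcnj1, Kcnmb1, Kcns3 and Kcne3, of which Kcnj1 and Kcne3 are named because they complete this count. Above the filter 3 genes were higher and only Kcns3 was lower, where 2.9% of all genes above the filter were higher and 1.83% lower. The lower genes other than Kcns3 had log2 signals between 3.28 and 5.13 in P4H-TM KO and between 3.56 and 5.59 in WT, below the filter. With the probe sets of each gene averaged, 4 genes in all passed 1.2-fold in place of 11. Taken at any signal, probe sets of the same channel gene had a wider pooled SD of 0.182.

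**Figure D2:**
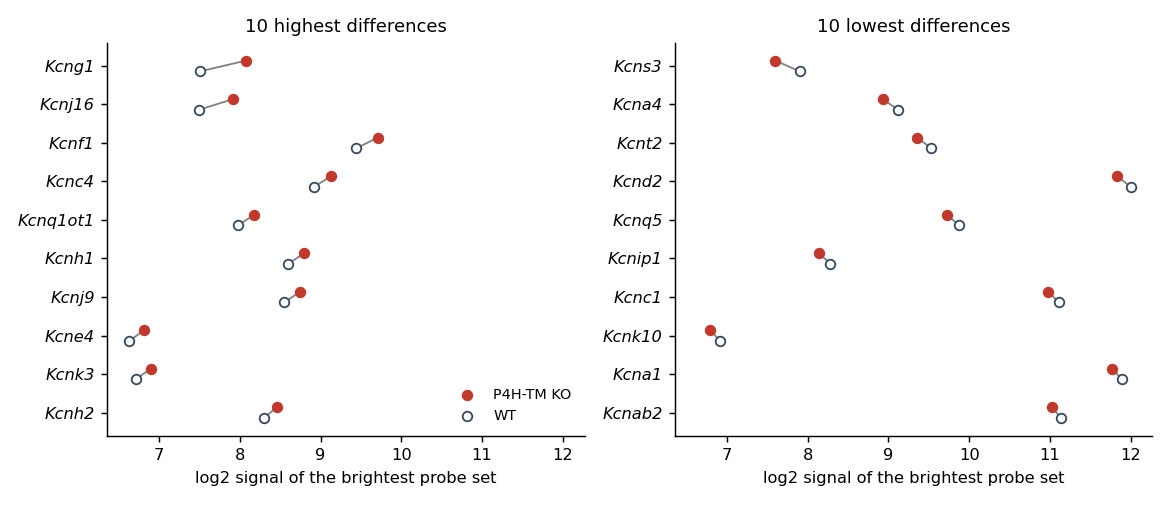
Log2 signal of the brightest probe set in P4H-TM KO (filled) and WT (open) for the 10 potassium channel genes with the highest and the 10 with the lowest differences above the filter, 1 array per genotype. Kcng1 shows the widest gap on the higher side, 8.08 in P4H-TM KO and 7.51 in WT, and Kcns3 on the lower side, 7.60 in P4H-TM KO and 7.90 in WT.

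The promoters of 4 genes are shown to compare them for the core of the HIF binding site. Kcnj9 and Kcnh1 were higher and Kcna4 and Kcnd2 lower, none of their probe sets had the opposite sign, and each had 1 transcription start in the RefSeq table. HIF binds ACGTG and GCGTG, which were searched on both strands, so that CACGTG counts on each strand. The 250 bases before the start are given from RefSeq (GRCm38.p6), 5′ to 3′ on the gene's strand, with any match in capitals. Kcnj9 lies at chr1:172329323-172329572 on the minus strand, and Kcnh1 at chr1:192190527-192190776, Kcna4 at chr2:107290339-107290588 and Kcnd2 at chr6:21215096-21215345 on the plus strand.
Kcnj9: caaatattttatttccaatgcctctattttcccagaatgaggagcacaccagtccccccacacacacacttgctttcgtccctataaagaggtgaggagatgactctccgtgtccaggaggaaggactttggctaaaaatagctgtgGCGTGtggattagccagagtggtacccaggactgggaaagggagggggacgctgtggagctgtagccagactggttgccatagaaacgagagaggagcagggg
Kcnh1: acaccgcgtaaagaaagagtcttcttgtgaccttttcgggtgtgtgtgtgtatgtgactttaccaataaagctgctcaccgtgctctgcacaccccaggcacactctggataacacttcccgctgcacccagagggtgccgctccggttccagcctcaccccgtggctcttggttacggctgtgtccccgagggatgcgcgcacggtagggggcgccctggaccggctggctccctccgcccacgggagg
Kcna4: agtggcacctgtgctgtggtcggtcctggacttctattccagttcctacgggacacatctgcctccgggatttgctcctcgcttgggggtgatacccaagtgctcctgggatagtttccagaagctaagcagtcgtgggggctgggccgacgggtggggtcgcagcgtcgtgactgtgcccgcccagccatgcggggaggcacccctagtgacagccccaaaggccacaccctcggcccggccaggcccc
Kcnd2: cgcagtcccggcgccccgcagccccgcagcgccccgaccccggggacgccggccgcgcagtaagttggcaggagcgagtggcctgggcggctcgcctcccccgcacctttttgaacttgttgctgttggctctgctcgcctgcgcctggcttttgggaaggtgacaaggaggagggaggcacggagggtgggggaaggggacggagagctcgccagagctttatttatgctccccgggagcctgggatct
Kcnj9 held GCGTG at position −103 from the start, and these letters were in neither orientation in the windows of Kcnh1, Kcna4 and Kcnd2. Other genes met the same conditions on sign and start and are not printed. Among them Kcnd3 and Kcne4, both higher, had 7 and 2 matches, and Kcnh2, higher, and Kcnt2, lower, had none. The 4 windows therefore do not stand for all such genes. A start was found in the table for 62 potassium channel genes. Of their 86 starts 31 had the motif, or 36.0%, beside 38.6% of all 32851 starts. Counted by gene, 28 of the 62 had the motif at any start, or 45.2%, beside 41.5% of all genes in the table. These 28 channel genes had a median difference of −0.095 and the 34 without the motif −0.035. The differences of all genes were not split in this way. The groups were not matched for signal or for number of starts, so the medians say nothing about the motif itself. A match describes letters in a window and not binding.

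On each side the widest gap above the filter belonged to a silent subunit, a protein of the kind that forms no channel alone and modifies the pores it joins. Kcng1 had a log2 signal of 8.08 in P4H-TM KO and 7.51 in WT, a difference of 0.57 or 1.48-fold. Its other probe set was below the filter and had the opposite sign, with 4.98 in P4H-TM KO and 5.10 in WT. Kcnf1 had 9.71 in P4H-TM KO and 9.44 in WT, a difference of 0.27, while its other probe set differed by −0.06. Kcns3, a silent subunit known from parvalbumin neurons, went the other way, with 7.60 in P4H-TM KO and 7.90 in WT. Its difference was −0.30, and its other probe set, below the filter, differed by 0.16. These 3 genes were thus carried by their brightest probe sets only. Over all 9 measured silent subunits 5 were higher and 4 lower, with a median of 0.08.

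Among the inward rectifiers, which pass potassium more readily into the cell than out of it, Kcnj16 had the highest difference. Kcnj16 and Kcnj10 encode subunits that assemble into the potassium buffering channel of astrocytes. Kcnj16 had a log2 signal of 7.92 in P4H-TM KO and 7.49 in WT on the brightest probe set, a difference of 0.43. Its other probe set, also above the filter, had 7.04 in P4H-TM KO and 6.92 in WT, so both were higher. Kcnj10 had 10.68 in P4H-TM KO and 10.69 in WT, a difference of −0.01, so the subunit pair differed unequally. Of 8 astrocyte markers 6 were lower, 1 was higher and 1 equal, with a median of −0.045 and summed linear signals of 37700 in P4H-TM KO and 38800 in WT. Kcnj16 is also known from epithelia, and its gap lay in the same direction as the choroid plexus and meninges markers, whose part in it was not tested. Its neighbour on chromosome 11, Kcnj2, is named for its position and differed by −0.17 below the filter.

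G protein-gated inward rectifiers carry the slow inhibition that follows activation of GABA-B and other receptors. Kcnj9, a subunit of these channels in neurons, had 8.75 in P4H-TM KO and 8.55 in WT, a difference of 0.20. The other 3 probe sets of Kcnj9 differed by 0.14, 0.00 and 0.36, the last of them below the filter, so none was lower. Kcnj3, its common partner, had 10.76 in P4H-TM KO and 10.88 in WT, a difference of −0.12, and its other probe sets gave −0.03, 0.07 and 0.11. Kcnj6 had 6.52 in P4H-TM KO and 6.63 in WT, and its 5 probe sets lay between −0.38 and 0.11. Kcnj5, a subunit of the heart channel, had 4.95 in P4H-TM KO and 5.04 in WT, below the filter. Its other probe set, also below the filter, differed by 0.09. The family thus had 1 higher and 3 lower genes, with a median of −0.10.

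The pores of ATP-sensitive channels, which couple metabolism to excitability, lay close to 0. Kcnj8, known from pericytes and smooth muscle, had 7.19 in P4H-TM KO and 7.21 in WT, and Kcnj11, the neuronal pore, had 9.16 in P4H-TM KO and 9.13 in WT. Their sulfonylurea receptor partners were lower, with Abcc8 at 8.10 in P4H-TM KO and 8.37 in WT and Abcc9 at 7.11 in P4H-TM KO and 7.23 in WT. Over all 14 inward rectifier genes 4 were higher and 10 lower, with a median of −0.095. The 16 other probe sets of these genes leaned the other way, with 9 higher, 5 lower and 2 equal and a median of 0.07.

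The genes of the axonal low-threshold channel had the same direction on their brightest probe sets. The complex holds pore subunits of the Kcna family, which cluster at the axon initial segment and beside nodes of Ranvier, and cytoplasmic beta subunits of the Kcnab family. All 7 listed genes (Kcna1, Kcna2, Kcna4, Kcna6, Kcnab1, Kcnab2 and Kcnab3) were measured above the filter and all 7 were lower, with differences between −0.19 and −0.05 and a median of −0.10. Against this, the 12 other probe sets of these genes were divided, 6 lower and 6 higher. With the probe sets of each gene averaged, Kcna2, Kcna6 and Kcnab3 turned positive, at 0.11, 0.05 and 0.035. The other genes of the complex stayed lower. Kcna1 had 11.77 in P4H-TM KO and 11.89 in WT. Its 3 other probe sets differed by −0.13, −0.17 and −0.30, the last below the filter, so all 4 were lower. Kcna4, which gives the complex fast inactivation, had 8.93 in P4H-TM KO and 9.12 in WT, a difference of −0.19, and its other probe set had 7.50 in P4H-TM KO and 7.72 in WT. Kcna2 was not as uniform, with 10.70 in P4H-TM KO and 10.77 in WT on its brightest probe set and 10.49 in P4H-TM KO and 10.41 in WT on the next. Its remaining probe sets, below the filter, differed by 0.02 and 0.42. Among the beta subunits Kcnab2 was lower on both of its probe sets, at −0.12 and −0.21, while Kcnab1 gave −0.09 and 0.01. Of the proteins that anchor or bind this complex, Cntnap2 had 10.05 in P4H-TM KO and 10.20 in WT and Cntn2 had 9.69 in P4H-TM KO and 9.80 in WT. The other listed binding proteins Adam22, Lgi1, Dlg2 and Dlg4 differed by 0.01, −0.01, 0.02 and 0.07, so the partners had no common direction. Oligodendrocyte markers were lower in the same comparison, with all 9 between −0.34 and −0.08, and their part in these values was not tested. Of the remaining Kcna genes, Kcna3, known from microglia and T cells, had 5.52 on both arrays and Kcna5 had 5.42 in P4H-TM KO and 5.67 in WT, both below the filter. Kcna5, Kcna1 and Kcna6 are neighbours on chromosome 6 and differed by −0.25, −0.12 and −0.05.

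**Figure D3:**
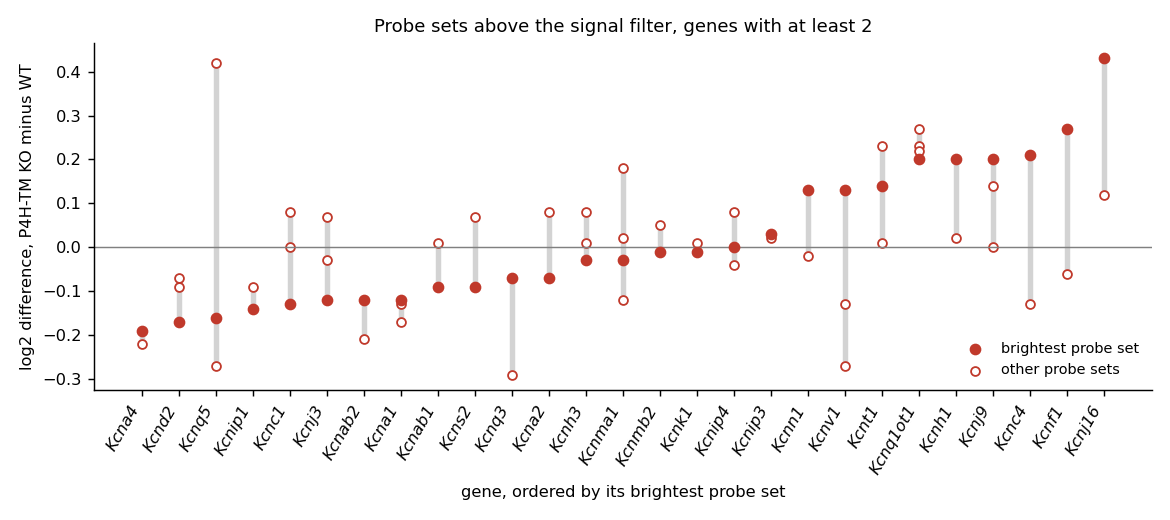
Log2 difference, P4H-TM KO minus WT, of every probe set above the filter for the 27 potassium channel genes with at least 2 of them, where the filled point is the brightest probe set of a gene, open points are its other probe sets and grey bars join the lowest and the highest. All probe sets of Kcna4, Kcnd2, Kcna1 and Kcnab2 lie below 0 and those of Kcnj16, Kcnq1ot1 and Kcnt1 above it, while 16 genes have no common sign.

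A-type channels open below threshold and damp signals in dendrites. Kcnd2, their main pore subunit in cortical pyramidal neurons, had 11.83 in P4H-TM KO and 12 in WT, a difference of −0.17. The 3 other probe sets of Kcnd2 differed by −0.07, −0.09 and −0.22, the last below the filter, so all 4 were lower. Kcnd3 went the other way, with 10.89 in P4H-TM KO and 10.81 in WT, and its 3 other probe sets, all below the filter, differed by 0.15, 0.17 and 0.22. Kcnd2 and Kcnd3 therefore had opposite signs on all their probe sets, although the SD between probe sets was 0.136. The Kcnip genes encode calcium-binding partners of these pores. Kcnip1 had 8.14 in P4H-TM KO and 8.28 in WT, a difference of −0.14, while Kcnip2, Kcnip3 and Kcnip4 lay between −0.03 and 0.03. The other probe sets of Kcnip1 differed by −0.09 above the filter and by 0.26 and −0.23 below it. Of the further partners Dpp6 differed by 0.01, and Dpp10 had 9.92 in P4H-TM KO and 9.71 in WT. Over the 7 Kcnd and Kcnip genes 2 were higher, 4 lower and 1 equal, with a median of −0.03.

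Kcnc genes encode fast delayed rectifiers that let interneurons fire at high rates. Kcnc1 had 10.98 in P4H-TM KO and 11.11 in WT, but its other probe sets differed by 0.08, 0.00 and 0.08. Kcnc2 had 11.11 in P4H-TM KO and 11.08 in WT. Kcnc4 had 9.13 in P4H-TM KO and 8.92 in WT on one probe set and 7.47 in P4H-TM KO and 7.60 in WT on the other, so the sign rested on the probe set. Markers of fast-spiking interneurons had 3 of 6 genes higher, with a median of −0.015 and summed linear signals of 9690 in both P4H-TM KO and WT.

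The M-current, which opposes repetitive firing and is closed by muscarinic receptors, was represented by Kcnq3 and Kcnq5. Kcnq3 had 11.33 in P4H-TM KO and 11.40 in WT, and its other probe set was lower by more, with 7.19 in P4H-TM KO and 7.48 in WT. Kcnq5 had 9.72 in P4H-TM KO and 9.88 in WT, with other probe sets at −0.27 and 0.42, the last with a mean signal at the filter. Kcnq1, a channel of heart and epithelia, had 5.34 in P4H-TM KO and 5.59 in WT, below the filter. All 3 Kcnq genes were therefore lower on their brightest probe sets, with a median of −0.16. Kcnq1ot1, the imprinted long non-coding RNA transcribed antisense to Kcnq1, had 8.18 in P4H-TM KO and 7.98 in WT. Its 5 other probe sets differed by 0.27, 0.22, 0.23, 0.36 and −0.22, of which the last 2 were below the filter, so 5 of 6 were higher.

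The Kcnh genes encode voltage-gated channels of the ether-a-go-go family and had a positive median of 0.175 over 6 genes. Kcnh1 had 8.80 in P4H-TM KO and 8.60 in WT, and its other probe set had 8.58 in P4H-TM KO and 8.56 in WT. Kcnh2, the channel that repolarizes the heart and also occurs in neurons, had 8.46 in P4H-TM KO and 8.30 in WT on its only probe set. Both were higher by 0.20 or less. The extremes of the family were below the filter, with Kcnh7 at 5.84 in P4H-TM KO and 5.51 in WT and Kcnh8 at 5.13 in P4H-TM KO and 5.59 in WT. The mean of the family was 0.065.

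**Figure D4:**
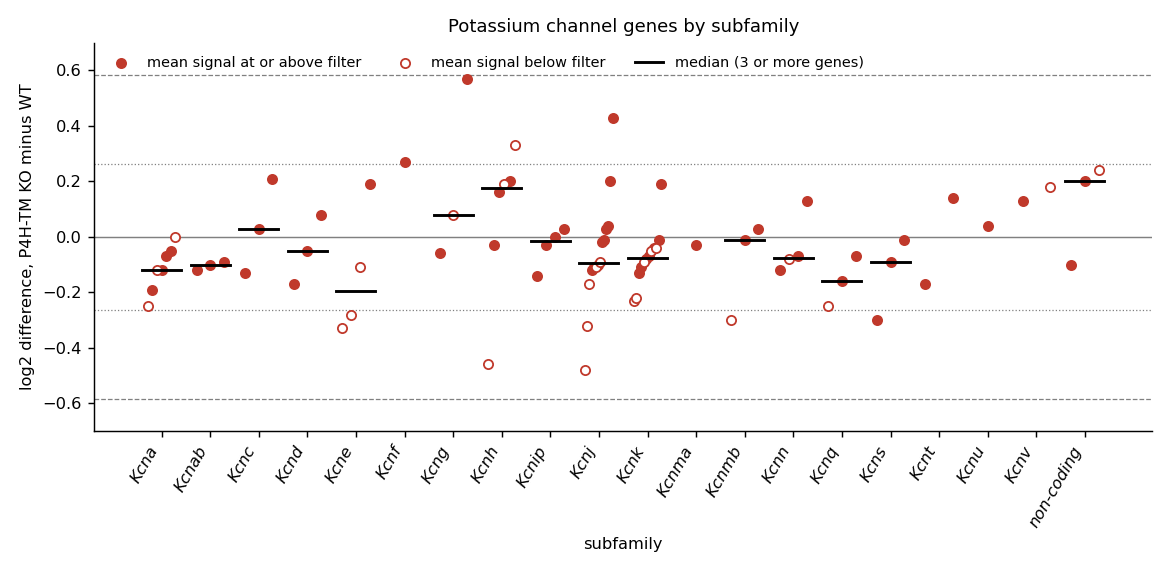
Log2 difference, P4H-TM KO minus WT, of each of the 82 potassium channel genes by subfamily, with genes above the signal filter filled and genes below it open, the median as a bar for subfamilies of 3 or more, dotted lines at 1.2-fold and dashed lines at 1.5-fold. No point crosses the dashed lines, and 11 of the 12 Kcnk genes and 6 of the 7 Kcna genes lie below 0.

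Tandem-pore channels of the Kcnk family carry the leak current that sets the resting potential. Of 12 measured genes 11 were lower, or 91.7%, beside 49.0% of all genes, with a median of −0.075 and a range of −0.23 to 0.19. In Kcna 85.7% were lower and no gene was higher. Above the filter were 7 of the 12 Kcnk genes. The brighter genes had small differences. Kcnk1, which is abundant in astrocytes, had 11.87 in P4H-TM KO and 11.88 in WT, and Kcnk2, a mechanically gated channel, had 9.64 in P4H-TM KO and 9.71 in WT. Kcnk13, known from microglia, had 7.59 in P4H-TM KO and 7.67 in WT, beside a median of −0.03 over 5 microglia markers. Kcnk10, a relative of Kcnk2, had 6.79 in P4H-TM KO and 6.92 in WT, and its other probe set differed by 0.15. Kcnk3, an acid-sensitive channel, was the exception, with 6.90 in P4H-TM KO and 6.71 in WT. Its 2 other probe sets, below the filter, were lower, at −0.08 and −0.13. Kcnk7, with 6.24 in P4H-TM KO and 6.47 in WT, was the lowest and was below the filter. Of the 6 other probe sets of the family 4 were higher, and their median was 0.03.

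Calcium-activated channels translate calcium entry into hyperpolarization. Kcnma1, the pore of the large-conductance channel, had 10.69 in P4H-TM KO and 10.72 in WT, and Kcnmb4, its neuronal beta subunit, had 10.21 in P4H-TM KO and 10.18 in WT. The 3 other probe sets of Kcnma1 above the filter differed by 0.02, −0.12 and 0.18, and the remaining probe set, with 6.12 in P4H-TM KO and 5.51 in WT below the filter, differed by 0.61. The brightest probe sets thus put the neuronal channel close to 0. Kcnmb1, the beta subunit of smooth muscle, had 5.09 in P4H-TM KO and 5.39 in WT, below the filter, while 5 of 6 mural cell markers were higher. Among the small-conductance channels, which carry the medium afterhyperpolarization, Kcnn1 had 7.45 in P4H-TM KO and 7.32 in WT. The other probe set of Kcnn1, also above the filter, differed by −0.02. Kcnn2 had 9.88 in P4H-TM KO and 9.95 in WT, and Kcnn3 had 5.13 in P4H-TM KO and 5.21 in WT, below the filter. Kcnn4, the intermediate-conductance channel of blood cells and microglia, had 6.37 in P4H-TM KO and 6.49 in WT, with a mean signal just above the filter. Kcnt2, a sodium-activated pore, had 9.36 in P4H-TM KO and 9.53 in WT on its only probe set. Its relative Kcnt1, named for comparison with it, had 7.93 in P4H-TM KO and 7.79 in WT, and its other probe sets differed by 0.01 and 0.23. Together with Kcnu1, a related pore of sperm that differed by 0.04 and is gated by neither calcium nor sodium, 3 of these 8 pore genes were higher and 5 lower, with a median of −0.05.

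The Kcne genes encode small membrane proteins that change the gating of Kcnq and other pores. Kcne4 had 6.82 in P4H-TM KO and 6.63 in WT, a difference of 0.19, and was the only measured Kcne gene above the filter apart from Kcne2. Kcne1 had 4.55 in P4H-TM KO and 4.88 in WT, and its other probe set read 3.67 on both arrays. Kcne2, which is left out of the counts, had 8.88 in P4H-TM KO and 6.75 in WT, a difference of 2.13, and Kcnj13, left out likewise, had 10.54 in P4H-TM KO and 8.33 in WT, a difference of 2.21. Both are known from the apical membrane of the choroid plexus epithelium. No other potassium channel gene came near these sizes, the nearest being Kcng1 at 0.57.

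The remaining genes, which are named to account for all 82, had small differences or low signals. The strong inward rectifiers Kcnj2, Kcnj4, Kcnj12 and Kcnj14, which hold the resting potential of muscle and neurons, lay between −0.17 and 0.04. Kcnj1, the channel of the kidney tubule, had 4.53 in P4H-TM KO and 4.85 in WT, and Kcnj15 had 3.85 in P4H-TM KO and 4.33 in WT with other probe sets at −0.16 and −0.10, so both were below the filter. Among the silent subunits Kcng2, Kcns1 and Kcns2 differed by −0.06, −0.01 and −0.09, and Kcng4, below the filter, by 0.08. Kcnv1 had 8.45 in P4H-TM KO and 8.32 in WT, but its other probe sets differed by −0.13 and −0.27, and Kcnv2 was below the filter at 3.66 in P4H-TM KO and 3.48 in WT. The tandem-pore genes Kcnk5, Kcnk6, Kcnk12, Kcnk15 and Kcnk16 lay between −0.11 and −0.04, and Kcnk4, a mechanically gated relative of Kcnk2, differed by −0.22 below the filter. Kcnh3 differed by −0.03 and Kcnh5, below the filter, by 0.19. Kcna7 and Kcne1l, also below it, differed by −0.12 and −0.11, and Kcne3 by −0.28. Kcnd1, the third pore gene of the A-type family, had 7.22 in P4H-TM KO and 7.27 in WT. Its other probe sets, below the filter, differed by 0.03 and 0.32. Kcnmb2, a beta subunit of the large-conductance channel, differed by −0.01. The non-coding transcripts Kcnmb4os1 and Kcnmb4os2 had opposite signs, at 0.24 below the filter and −0.10 above it.

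Agreement between probe sets was low for the family as a whole. The 82 genes had 165 probe sets, and 46 genes had more than 1. Of all 165 probe sets 87 were lower, 72 higher and 6 equal, with a median of −0.02. The 83 probe sets that did not represent a gene were 47 higher and 32 lower, and above the filter 22 of 41 were higher and 17 lower. Of 27 genes with at least 2 probe sets above the filter, 6 were lower on all of them (Kcna1, Kcna4, Kcnab2, Kcnd2, Kcnip1 and Kcnq3), 5 were higher on all of them (Kcnh1, Kcnip3, Kcnj16, Kcnq1ot1 and Kcnt1) and 16 had no common sign. The pooled SD of 0.136 between probe sets of channel genes lay beside 0.101 for 5101 genes of the array. The SD of the differences over the 57 channel genes above the filter was 0.155, beside 0.149 for all genes above it, so the channel genes were spread about as widely as other genes.

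Genes that work with potassium channels without being among them gave values of similar size. Of 17 measured partner proteins 7 were higher and 10 lower, with a median of −0.09. Hcn2, a pacemaker channel gene, had 8.47 in P4H-TM KO and 8.63 in WT, and Hcn3 had 7.12 on both arrays. Of 7 measured potassium transporter genes 4 were higher, led by Slc12a7, a potassium chloride cotransporter, with 7.04 in P4H-TM KO and 6.66 in WT. In other ion channel families 8 of 11 sodium channel genes, 15 of 24 calcium channel genes and 9 of 15 GABA-A receptor subunit genes were lower in P4H-TM KO, beside 49.0% of all genes. Their medians of −0.03, −0.02 and −0.04 were close to the 0.00 of all genes, and no test of a difference between families can be made with these arrays.

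**Figure D5:**
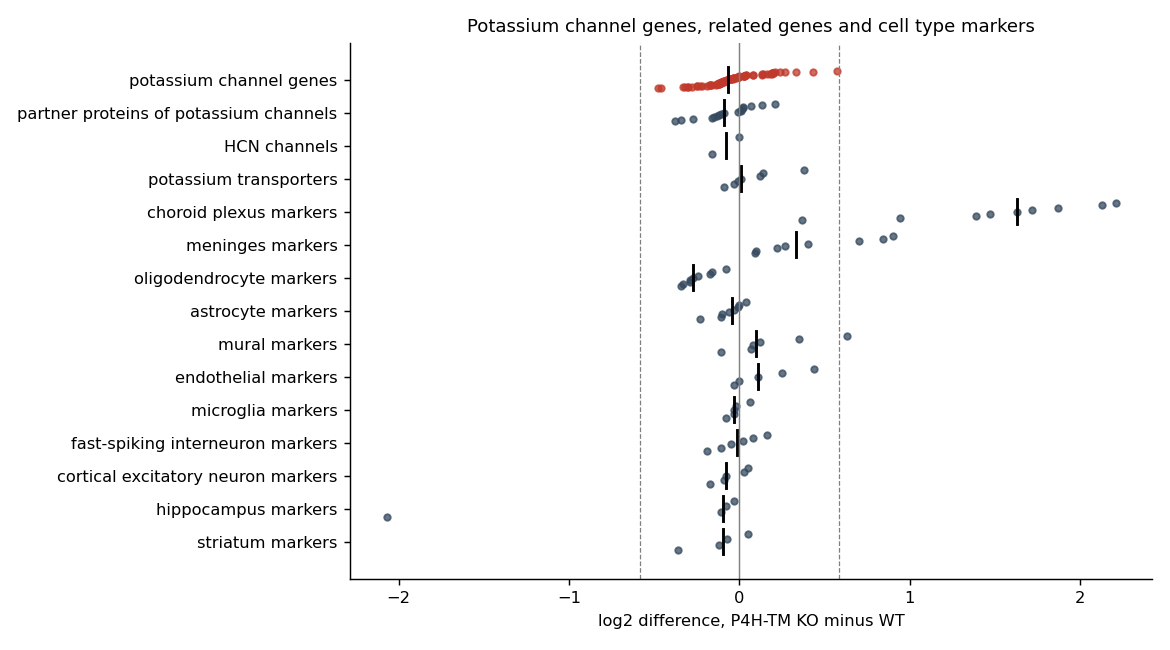
Log2 difference, P4H-TM KO minus WT, of each gene in the potassium channel set, in related gene lists and in cell type marker lists, where bars are medians and dashed lines mark 1.5-fold. Potassium channel genes stay within −0.48 and 0.57, choroid plexus markers, which include Kcnj13 and Kcne2, have a median of 1.63, and the far left point among the hippocampus markers is Spink8 at −2.07.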

How the data were processed

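Each array held the cortical RNA of 4 mice, 1 array per genotype. Before deposit the authors normalized the scanned arrays with RMA, per the submitters' processing notes, and its version is not given in the sources used here. This method corrects background, equalizes the distributions of the arrays and summarizes each probe set. The deposited values are log2 signals rounded to 2 decimals, between 2.69 and 14.91. The number of arrays limits the precision.

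Of 45101 probe sets, 34945 carried 1 symbol and were no controls, and 932 carried several and named no gene. Gene names came from the platform annotation, and all 82 potassium channel symbols were in the RefSeq table of GRCm38.p6. Where several probe sets measured a gene, the one with the highest mean of both arrays was used. The members, the gene lists and the rules were chosen with earlier results of these data known. Named genes were the 10 highest and 10 lowest above the filter, any at 1.5-fold, the extremes of each subfamily, a list of glial, vascular and epithelial channels, and the members of known complexes. Genes named to account for all members or to complete a count, Kcnj2, Kcnt1, Abcc8, Abcc9, Cntnap2, Cntn2, Adam22, Lgi1, Dlg2, Dlg4, Dpp6, Dpp10, Hcn2, Hcn3, Slc12a7 and Spink8, and the genes with printed promoters as a set, were chosen after their values were seen. So were the counts of lower genes at any size and of genes beyond the SD between probe sets. Each HIF core motif has 5 letters. Protein sequences were not used here. No test was run across genes. Alternatives were averaged probe sets, probe sets without the suffixes _x_at and _s_at, centred arrays, a loess trend removed at a span of 0.3, the filter, the mean, a 2-fold threshold, the members with Kcnj13 and Kcne2 and the members without non-coding transcripts. The choice of the brightest probe set and the count at 1.5-fold were tested on simulated data. The simulated shifts were larger than any channel gene difference here, and the noise was smaller than the SD between probe sets. The other steps were not tested in this way. Scripts ran in Python 3.11.15 with pandas 2.3.3 and numpy 2.4.6, the trend was fitted with statsmodels 0.14.6, and figures were drawn with matplotlib 3.10.9.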

Additional observations from a re-analysis of the deposited data

How the results depend on the processing

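A value was treated as stable when a gene moved by less than 0.136, a median by less than a set tolerance (0.0189 for all 82 genes) and a count by at most 1.5 times. The tolerance was formed from the SD of 0.136 and the number of genes, as if genes were independent. It is not an error between animals, and probe sets at any signal had a wider SD of 0.182. None of the 9 named genes called at 1.2-fold reversed under the alternatives run, which did not include Kcnj1 and Kcne3. The median of −0.065 over the potassium channel genes became −0.0083 with probe sets averaged, −0.046 with the intensity trend removed, −0.03 above the filter and −0.0359 as a mean, and stayed between −0.075 and −0.055 with centred arrays, without probe sets of the suffixes _x_at and _s_at, with Kcnj13 and Kcne2 and without non-coding transcripts. The count of 11 genes at 1.2-fold became 4 when probe sets were averaged, also 4 above the filter, where fewer genes were counted, and was 9 to 11 otherwise. The count of 0 at 1.5-fold became 2 with Kcnj13 and Kcne2. The count of genes above the filter that were higher beyond 0.136 was 11 and became 7 with probe sets averaged, and the count of lower ones stayed between 6 and 8. With probe sets averaged the medians of Kcnd and Kcnj were 0.10 and −0.015, and without the suffixed probe sets that of Kcnc was −0.13, where Kcnc4 took its other probe set. Above the filter the medians were 0.19 for Kcne, which left 1 gene, 0.255 for Kcng and −0.01 for Kcnj. As means Kcng gave 0.20 and Kcnh 0.065. Of 236 alternatives for named genes 221 were stable and 15 moved, 14 of them with probe sets averaged. Averaging took Kcng1 to 0.225, Kcnj16 to 0.275, Kcnf1 to 0.105 and Kcns3 to −0.07. Many of the 221 could not have moved, since centring shifted every gene by the same 0.01 and averaging leaves genes with 1 probe set unchanged. A change of sign did not decide the label: Kcna2, from −0.07 to 0.11, counted as moved and Kcna6, from −0.05 to 0.05, as stable. No paired analysis was possible because each genotype has 1 array. Replicates could not be left out for the same reason.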
